A study of Mus musculus with 2 samples.

Results

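The tumour necrosis factor (TNF) superfamily was followed as 36 genes, 15 ligands and 21 receptors, chosen by symbol from the 32285 genes of the count matrices. The question was which cells of mutant mouse lung carried the ligand transcripts and which carried the receptor transcripts, in an injured library and in a control library. Single cells came from lavaged, saline-perfused and collagenase-digested whole lung of C57BL/6 mice with the I73T mutation of surfactant protein C (SP-C), read with 10x 3′ v3 chemistry. The injured library and the control library share strain and genotype, 1 library stands for each, and the number of animals behind a library is not stated. The mutant allele holds a neomycin cassette that a tamoxifen gavage (175 mg/kg in corn oil) removes, which raises mutant SP-C expression, and a gavage of corn oil is named too, in a sentence that stops short. Titles and treatment tags disagree: the tag reads untreated for the injured library and tamoxifen treated for the control library. The series' design text names a steady state and a state 14 days past an injury, and the titles alone tell which library is which. Groups follow the titles here. If the tags were right and the titles wrong, every direction given here would turn round.

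TNF superfamily ligands are trimeric proteins, most of them made at the cell surface and some shed from it. Their receptors either recruit TRAF adaptors and switch on NF-κB and kinase signalling, or carry a death domain through which caspase 8 can be engaged. In lung and in immune cells the family is known for inflammation (TNF), lymphoid organisation (lymphotoxins), T cell costimulation (OX40, 4-1BB, GITR, CD27), B cell survival (BAFF and APRIL with their receptors) and apoptosis (Fas and TRAIL).

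After filtering, 2302 injured cells with 19731301 unique molecular identifiers (UMIs) and 2298 control cells with 16127198 UMIs remained, at medians of 3251.5 and 4507 UMIs per cell. Clusters were made without the 36 members and named from marker lists, and 8 of 17 named classes held at least 50 cells in both libraries. Several clusters came almost wholly from 1 library. Neutrophil cluster 0 had 426 injured and 5 control cells, and cluster 7 had 162 and 115. Alveolar macrophages split into cluster 5 (305 injured, 1 control) and cluster 4 (1 injured, 316 control), and alveolar epithelium into cluster 18 (84 injured, 22 control) and cluster 20 (18 injured, 65 control). In such classes cell state, cluster and library cannot be told apart. The classes C1q macrophage (364 injured, 11 control) and mature dendritic (102 injured, 9 control) were too unequal to compare, and 1 barcode occurred in both libraries. Levels are given in UMIs of the gene per 1000000 UMIs of the named cells (CPM), with exact 95% intervals in brackets that cover counting error only. With 1 library per group there is no spread between samples, so no difference was tested and none can be ascribed to injury rather than to the library.

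The costimulatory receptor genes Tnfrsf4, Tnfrsf18, Tnfrsf8 and Tnfrsf9, which stood higher in injured than in control T cells, lie on chromosome 4. The receptor genes Tnfrsf1b, Tnfrsf14 and Tnfrsf25 lie there too, so the chromosome is not particular to those genes. Tnfrsf4 (OX40; chr4:156013843-156016612, plus strand, GENCODE M21 on GRCm38) and Tnfrsf18 (GITR; chr4:156026164-156028895, plus strand) are neighbours 9552 bases apart. Tnfrsf8 (CD30; chr4:145267137-145315164, minus strand) lies 20267 bases from Tnfrsf1b, and Tnfrsf9 (4-1BB; chr4:150914562-150946102, plus strand) lies 1169832 bases from its nearest member, Tnfrsf25. The lymphotoxin genes and Tnf form a cluster on chromosome 17, with Ltb at chr17:35194439-35196320 and Tnf at chr17:35199381-35202007. In all, 15 of the 36 members lay within 100000 bases of another member. Promoter windows from RefSeq (GRCm38.p6, 250 bases before to 50 after a start) were found for 28 members, and the windows of these T cell receptor genes and of Ltb, the most abundant ligand gene, are shown 5′ to 3′ on the gene's strand. Capitals mark matches to the 10-base NF-κB consensus, searched on both strands, where neighbouring matches overlap into a longer run.
Tnfrsf9 (second start, chr4:150927749-150928048): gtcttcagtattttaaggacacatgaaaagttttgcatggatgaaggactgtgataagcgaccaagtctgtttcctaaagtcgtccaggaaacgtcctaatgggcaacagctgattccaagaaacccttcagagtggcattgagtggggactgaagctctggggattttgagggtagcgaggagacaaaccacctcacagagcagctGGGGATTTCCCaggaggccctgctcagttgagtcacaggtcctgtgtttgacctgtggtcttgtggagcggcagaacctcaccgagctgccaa
Tnfrsf8 (chr4:145315115-145315414): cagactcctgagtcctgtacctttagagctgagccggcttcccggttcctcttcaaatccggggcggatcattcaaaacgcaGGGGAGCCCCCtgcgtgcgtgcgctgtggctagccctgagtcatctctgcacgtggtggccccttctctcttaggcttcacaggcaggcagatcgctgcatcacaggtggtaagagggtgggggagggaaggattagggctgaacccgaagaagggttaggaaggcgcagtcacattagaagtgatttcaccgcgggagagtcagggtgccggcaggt
Tnfrsf4 (chr4:156013445-156013744): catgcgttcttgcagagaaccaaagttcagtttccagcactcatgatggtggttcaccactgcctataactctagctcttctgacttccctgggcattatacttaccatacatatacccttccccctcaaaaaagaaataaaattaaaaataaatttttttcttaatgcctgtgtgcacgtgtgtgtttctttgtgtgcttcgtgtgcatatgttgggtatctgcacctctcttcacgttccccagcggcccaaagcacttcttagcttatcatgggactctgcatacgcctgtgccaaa
Tnfrsf18 (chr4:156026072-156026371): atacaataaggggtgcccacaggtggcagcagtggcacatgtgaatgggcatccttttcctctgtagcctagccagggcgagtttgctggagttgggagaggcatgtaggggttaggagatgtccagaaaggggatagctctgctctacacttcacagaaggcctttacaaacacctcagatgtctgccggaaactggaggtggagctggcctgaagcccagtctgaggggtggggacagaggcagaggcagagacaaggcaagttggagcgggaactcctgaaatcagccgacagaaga
Ltb (chr17:35194257-35194556): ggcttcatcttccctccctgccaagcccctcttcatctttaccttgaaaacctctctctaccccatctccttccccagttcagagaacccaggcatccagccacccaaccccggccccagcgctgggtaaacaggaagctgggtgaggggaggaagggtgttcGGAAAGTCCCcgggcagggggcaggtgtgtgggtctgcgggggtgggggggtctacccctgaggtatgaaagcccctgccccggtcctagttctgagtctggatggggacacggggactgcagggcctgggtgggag
Relative to the start, the first match began at position -43 in Tnfrsf9, -168 in Tnfrsf8 and -87 in Ltb, and the Tnfrsf4 and Tnfrsf18 windows and the window of the other Tnfrsf9 start held none. A match was present in 12.9% of the 31 member windows and in 8.46% of all 32841 windows, and Tnfrsf25 was the other member with one. These are matches of letters, not evidence of binding.

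Among the ligands, Tnf had different main sources in the libraries. In the injured library neutrophils held 56.1% (50.5–61.6) of 319 Tnf UMIs, and alveolar macrophages held 15.05%. In the control library alveolar macrophages held 70.2% (65.5–74.6) of 409 UMIs. Tnf stood at 146 CPM (125–169) in injured neutrophils and 14.99 CPM (4.87–34.97) in control neutrophils, but at 7.89 CPM (5.82–10.5) in injured and 48.1 CPM (42.7–54.1) in control alveolar macrophages. Thinned to 1000 UMIs per cell, 7.73% of 543 injured and 0.901% of 111 control neutrophils held a Tnf UMI, against 12.4% and 4.17% unthinned at median depths of 2076 and 2708 UMIs. Fibroblasts, set as the class that should lack Tnf, gave 0 of 43 injured cells, which allows a share of cells with a UMI of up to 6.98% (3 counts of the total), and 0 of 79 control cells, which allows up to 3.797%, at median depths of 1352 and 1840. These limits concern cells with a UMI at this depth and not cells that express the gene. In control C1q macrophages all 38 Tnf UMIs came from 2 of 11 cells.

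Ltb, which encodes the membrane subunit of the lymphotoxin heterotrimer, was the most abundant member with 4295 UMIs over both libraries. T cell or ILC2 cells (a class that joins T cells with type 2 innate lymphoid cells) led in the injured library with 48.3% (45.5–51.2) of its UMIs, and B cells led in the control library with 45.7% (43.9–47.5). Neutrophils held a further 22.6% of injured Ltb UMIs. The soluble lymphotoxin gene Lta was rare at 29 injured and 23 control UMIs. T cell or ILC2 cells held 55.2% (35.7–73.6) of its injured UMIs. Of its control UMIs they held 47.8% (26.8–69.4), and B cells held nearly as many at 43.5%. Few cells of the T cell or ILC2 class passed an ILC2 marker gate, 3 of 189 injured and 2 of 285 control cells. The ILC2 part of its name comes from cluster 10, which passed 9 of 10 T cell and 4 of 9 ILC2 markers.

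The APRIL gene Tnfsf13 was a macrophage transcript in both libraries. Alveolar macrophages held 63.0% (60.9–65.1) of its 2061 injured UMIs and 73.2% (71.2–75.1) of its 1991 control UMIs. Tnfsf12 (TWEAK) was led by C1q macrophages in the injured library (44.0% of 743 UMIs, 90.5 CPM; 27.3% when each library was clustered alone) and, by share, by alveolar macrophages in the control library (54.9% of 776 UMIs), while its highest control level in a class of at least 20 cells was in fibroblasts at 143 CPM (108–186). These genes lie 466 bases apart on chromosome 11 under a read-through gene on the same strand, so reads between them may be shared. The BAFF gene Tnfsf13b, a B cell survival factor, was highest per cell in fibroblasts, at 42.8 CPM (26.5–65.4) in injured and 51.1 CPM (31.2–78.9) in control cells. Fibroblasts had been set as its background class, so no background level is available for it.

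Tnfsf10 (TRAIL), a death ligand, was highest in blood endothelium, with 91.6 CPM (61.3–132) in injured and 260 CPM (230.04–294) in control cells. Fasl, the ligand of Fas, was highest in natural killer cells, at 127 CPM (85.4–183) in the 46 injured cells and 322 CPM (275–376) in the 114 control cells. Alveolar macrophages, which should lack Fasl, held no UMI in 306 injured or 317 control cells, which allows shares of cells with a UMI of up to 0.98% and 0.946% by the same 3 counts. Tnfsf14 (LIGHT) was highest in neutrophils of both libraries (44.0 and 38.96 CPM), and Tnfsf9 (4-1BB ligand) in conventional dendritic cells (35.96 and 91.9 CPM) among classes of at least 20 cells. In the 18 injured classical monocytes Tnfsf9 stood at 107 CPM. Tnfsf8 (CD30 ligand), Cd40lg and Tnfsf11 (RANKL) were mainly T cell or ILC2 transcripts, with 66.7%, 76.9% and 90.9% of injured UMIs and 72.2%, 92.0% and 95.7% of control UMIs in that class. Cd70 (CD27 ligand) had 20 injured and 0 control UMIs, 17 of them in mature dendritic cells, and Tnfsf4 (OX40 ligand) had 16 and 3, of which 9 injured UMIs were in the same class.

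**Figure D1:**
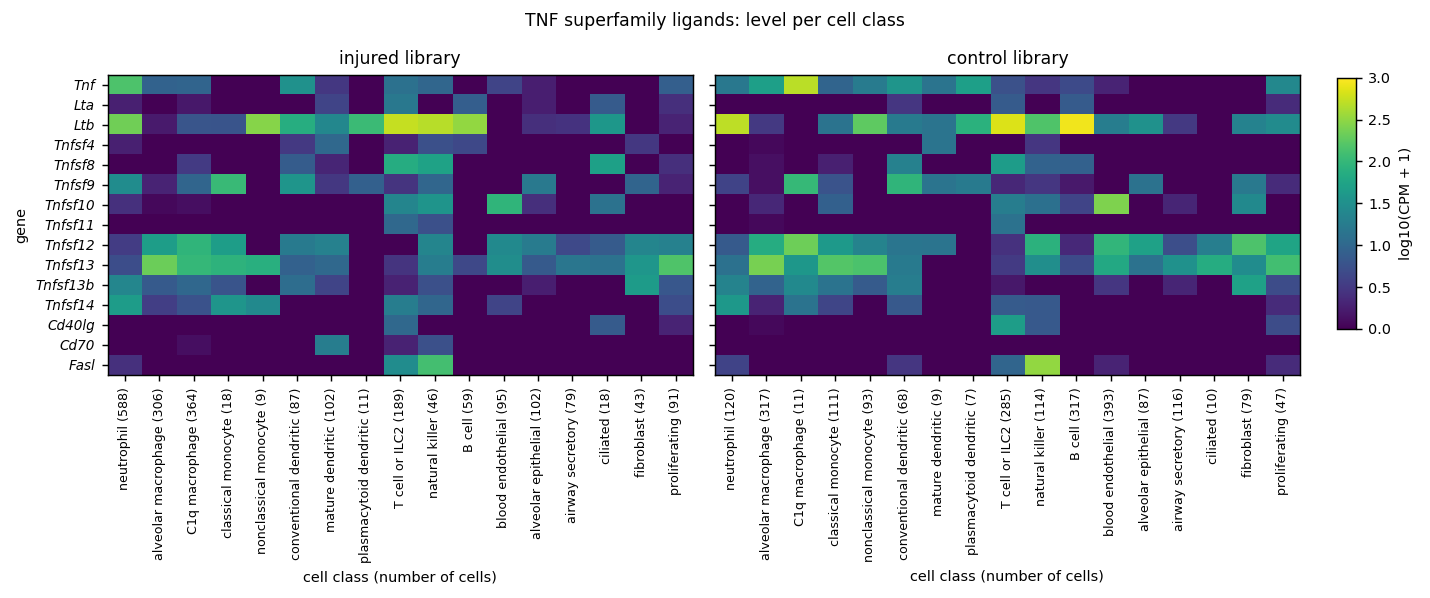
Level of each ligand gene (rows) in each cell class (columns, number of cells in brackets) as log10(CPM + 1), injured library left and control library right. Tnf is brightest in neutrophils of the injured library (146 CPM), and in the control library its brightest square, C1q macrophages, rests on 2 of 11 cells.

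The TNF receptor genes were broadly spread. Tnfrsf1a (TNFR1, with a death domain) was highest in neutrophils of both libraries, at 279 CPM (249.9–309.8) in injured and 525 CPM (450–608) in control cells. Tnfrsf1b (TNFR2) was highest in injured neutrophils at 245 CPM (218–275) among injured classes of at least 20 cells, and in control nonclassical monocytes at 539 CPM (475–609). Alveolar macrophages held the largest share of both genes (31.7% and 41.9% injured, 35.5% and 47.8% control), and had medians of 18900 injured and 18312 control UMIs per cell.

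Costimulatory receptor transcripts were found in lymphocytes and in mature dendritic cells. Tnfrsf4 (OX40) was at 298 CPM (266–332) in injured and 39.9 CPM (31.1–50.4) in control T cell or ILC2 cells, and at 164 CPM (139–191) in injured and 227 CPM (132–364) in the 9 control mature dendritic cells. Tnfrsf9 (4-1BB) reached 488 CPM (446–534) in injured mature dendritic cells, which held 53.1% (49.7–56.4) of its 895 injured UMIs, and stood at 294 CPM (184–446) in the 9 control ones. Its leading control class was natural killer cells, with 60.6% (47.8–72.4) of 66 UMIs at 78.6 CPM (56.2–107). Thinned to 1000 UMIs, 23.0% of injured mature dendritic cells held a Tnfrsf9 UMI (64.7% unthinned, median depth 7098), against 0 of 27 thinned and 0 of 43 unthinned injured fibroblasts, its background class (median depth 1352), which allows a share of cells with a UMI of up to 6.98% unthinned. Cd40, the receptor of CD40 ligand, was led by mature dendritic cells in the injured library (51.8% of 199 UMIs, 106 CPM) and by B cells in the control library (45.6% of 195 UMIs, 55.1 CPM). Tnfrsf11a (RANK) was likewise highest in injured mature dendritic cells at 151 CPM (128–178), with 161 CPM (83.0–280) in the 9 control ones. By share, alveolar macrophages (29.6%) and C1q macrophages (29.0%) led its 639 injured UMIs, and alveolar macrophages held 58.3% of its 144 control UMIs. The 9 control mature dendritic cells had levels of Tnfrsf4, Tnfrsf11a and Cd40 whose intervals overlap the injured ones. That class had 102 injured and 9 control cells.

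Cd27 and Tnfrsf25 (DR3) were mainly T cell or ILC2 transcripts, with 65.3% and 84.9% of injured UMIs and 67.4% and 88.8% of control UMIs there. Tnfrsf13c (BAFF receptor) lay in B cells, at 143 CPM (103–194) in injured and 215 CPM (193–239) in control cells. Tnfrsf13b (TACI, a receptor of BAFF and APRIL) was similar in B cells of the libraries, at 154 CPM (112–206) in injured and 151 CPM (133–171) in control cells, yet C1q macrophages held the largest share of it in the injured library (29.9%) and B cells in the control library (43.5%). The C1q macrophage share was 12.3% when each library was clustered alone. Tnfrsf17 (BCMA, a plasma cell receptor) had 7 injured UMIs in 3 cells and 62 control UMIs in 1 cell. That cell lay in the B cell cluster, held 29985 UMIs with 957 of Jchain, 35 of Mzb1 and 27 of Xbp1, and carried a UMI of all 7 plasma cell markers listed. The control level of Tnfrsf17 therefore describes 1 cell.

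Tnfrsf12a (Fn14, the TWEAK receptor) was highest in alveolar epithelium of the injured library at 292 CPM (264–323) and in fibroblasts of the control library at 84.3 CPM (58.0–118). Injured fibroblasts stood at 97.8 CPM (72.1–130). Fas was highest in blood endothelium of both libraries among classes of at least 20 cells, and Tnfrsf10b (the TRAIL receptor) likewise at 28.4 and 16.6 CPM from 9 and 17 UMIs. Ltbr, the lymphotoxin β receptor, was highest in alveolar epithelium of the injured library (94.6 CPM) and blood endothelium of the control library (71.2 CPM), and Tnfrsf21 (DR6) in alveolar macrophages (89.5 CPM) and classical monocytes (121 CPM) of at least 20 cells. Relt was highest in neutrophils of both libraries, at 90.4 and 56.9 CPM. Over all members, 19 had at least 50% of their UMIs in a single class in the injured library and 19 in the control library. The injured count includes members with few UMIs, such as Tnfrsf17 with 7, Tnfsf11 with 11, Cd40lg with 13 and Tnfsf4 with 16. No share over all genes was set beside these counts, so they do not tell whether the family is unusually restricted.

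**Figure D2:**
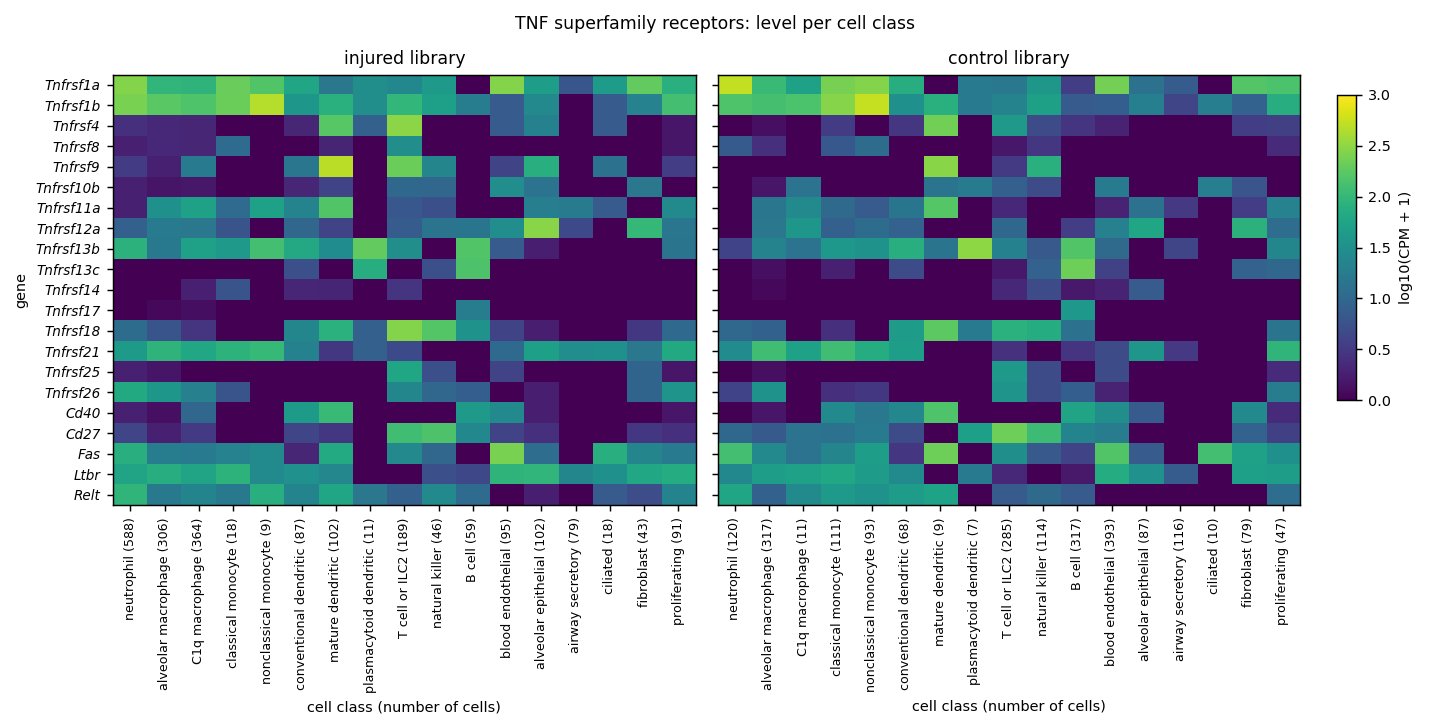
Level of each receptor gene (rows) in each cell class (columns, number of cells in brackets) as log10(CPM + 1), injured library left and control library right. Tnfrsf9 is brightest in mature dendritic cells of both libraries, and its bright squares in T cell or ILC2 cells and alveolar epithelium appear in the injured library.

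Summed over all cells, 11 members were at least 1.5-fold higher and 9 at least 1.5-fold lower in the injured library, and 16 lay between. Among all 15694 genes with at least 10 UMIs, 20.7% were higher and 17.7% lower by that measure. The median log2 ratio was -0.16 over the 36 members, all of which passed the minimum, and 0.05 over all genes. Of the ligands 4 were higher and 6 lower, and of the receptors 7 were higher and 3 lower. Whole-library values mix the level per cell with the number and depth of the cells of each class, which cannot be told apart in them.

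Tnfrsf9 stood furthest above with a ratio of 11.1 (8.63–14.5), on 45.4 injured and 4.09 control CPM. Tnfrsf4 had a ratio of 4.22 (3.41–5.27), Tnfrsf11a 3.63 (3.02–4.38), Tnfrsf12a 2.67 (2.28–3.15) and Tnfsf14 2.43 (1.70–3.54). Smaller ratios above 1.5 were found for Relt at 1.78 (1.5–2.12), Ltbr at 1.73 (1.56–1.92) and Tnfsf9 at 1.63 (1.24–2.17), and for Tnfrsf8 at 1.51 with an interval of 0.918–2.53 that includes 1. With each cell counted the same, the log2 ratio was 2.63 rather than 3.47 for Tnfrsf9, 0.63 rather than 1.42 for Tnfrsf12a, 1.77 rather than 0.71 for Tnfsf9 and 1.44 rather than 0.83 for Relt. Cd70, with 20 UMIs against none, had a ratio of 5.45 when the control count is set at 3, with an exact lower limit of 4.04. Tnfsf4 had a ratio of 4.36 (1.25–23.3) on 16 and 3 UMIs.

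The lower members were mostly lymphocyte, natural killer and endothelial transcripts, whose classes held fewer cells in the injured library. Tnfrsf13c was 7.94-fold lower (2.89 CPM injured, 22.9 CPM control), Cd40lg 8.19-fold, Tnfsf10 5.96-fold, Fasl 3.65-fold, Cd27 3.51-fold and Ltb 3.07-fold. Tnfrsf17 was 10.8-fold lower, on 62 control UMIs that all came from the 1 cell described above. B cells were 2.56% of injured and 13.8% of control cells, natural killer cells 1.998% and 4.96%, and blood endothelium 4.13% and 17.1%. Some of these genes were also lower inside a class. Ltb stood at 328 CPM in injured and 869 CPM in control B cells. Cd40lg stood at 9.23 and 45.5 CPM in T cell or ILC2 cells, where Fasl was higher. Tnfsf10 stood at 91.6 and 260 CPM in blood endothelium. The parts of cell number and of level were not tested. Tnf was 1.57-fold lower, on 16.2 injured (14.4–18.0) and 25.4 control CPM (23.0–27.9). When each cell counted the same rather than each UMI, the log2 ratio of Tnf was 1.47 rather than -0.65. Neutrophils are many and shallow, and alveolar macrophages hold 30.8% of injured and 37.0% of control UMIs.

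**Figure D3:**
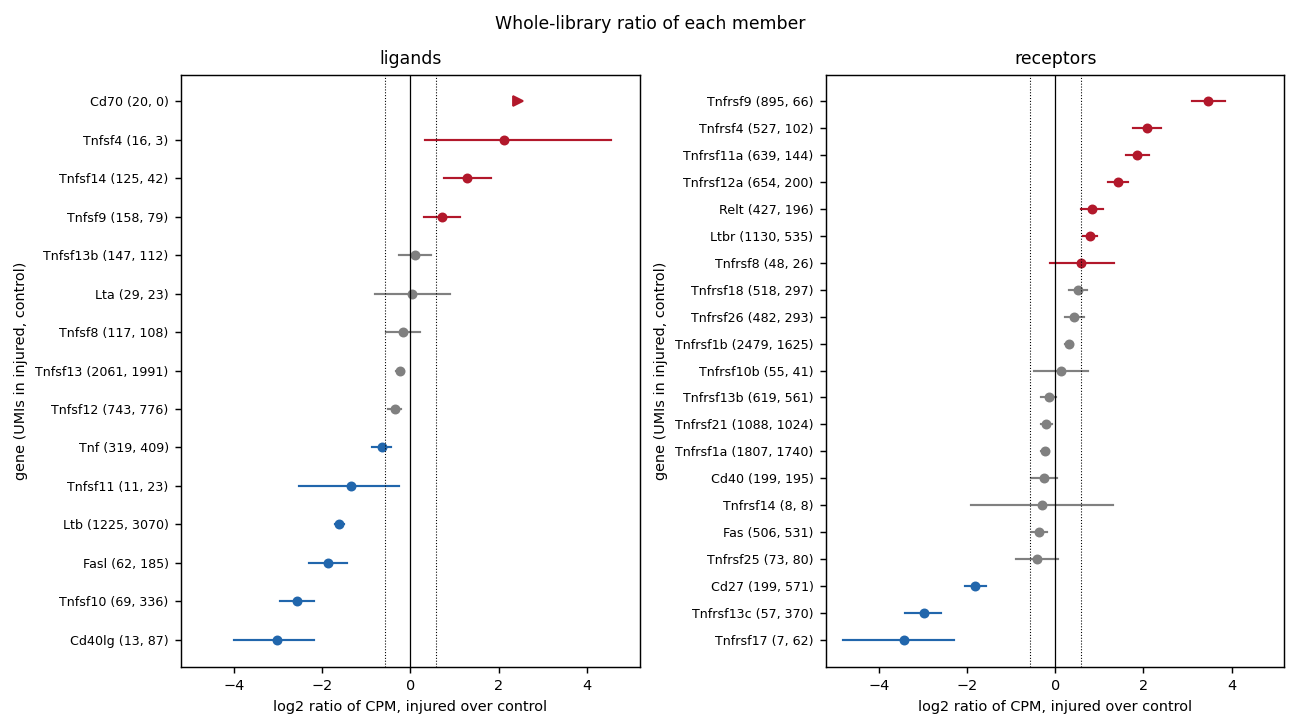
Whole-library log2 ratio of CPM, injured over control, for ligands and receptors, with exact 95% counting intervals as lines and UMI counts (injured, control) beside each name. Red marks at least 1.5-fold higher and blue at least 1.5-fold lower (dotted lines), grey lies between, and the triangle for Cd70 is a lower bound. Tnfrsf9 lies furthest right at 3.47.

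Inside cell classes the members were compared where a class had at least 50 cells in both libraries and the gene at least 10 UMIs in it. Of the 115 pairs of member and class that could be compared, 40 were higher and 28 lower, or 34 and 33 relative to the median of each compared class. Over all genes the classes had 13.6% to 51.4% higher and 6.81% to 22.9% lower, so these sums mix classes with unlike backgrounds. A count of 0 was set at 3. Where UMI totals are unequal, a gene with few UMIs in 1 library and none in the other can thus be called the wrong way. The counts of members and the shares of all genes can both include such calls. The median of all genes with at least 10 UMIs in each library moved off 0 in several classes, by 0.42 log2 in T cell or ILC2 cells, 0.34 in airway secretory cells, 0.23 in neutrophils, 0.16 in blood endothelium, 0.16 in B cells and -0.13 in alveolar macrophages. Values below are unshifted, and for these 6 classes the number of members past 1.5-fold relative to that median is given too, beside the share of all genes counted in the same way. The 34 and 33 pairs also use the medians of alveolar epithelium (-0.04) and conventional dendritic cells (0.01).

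**Figure D4:**
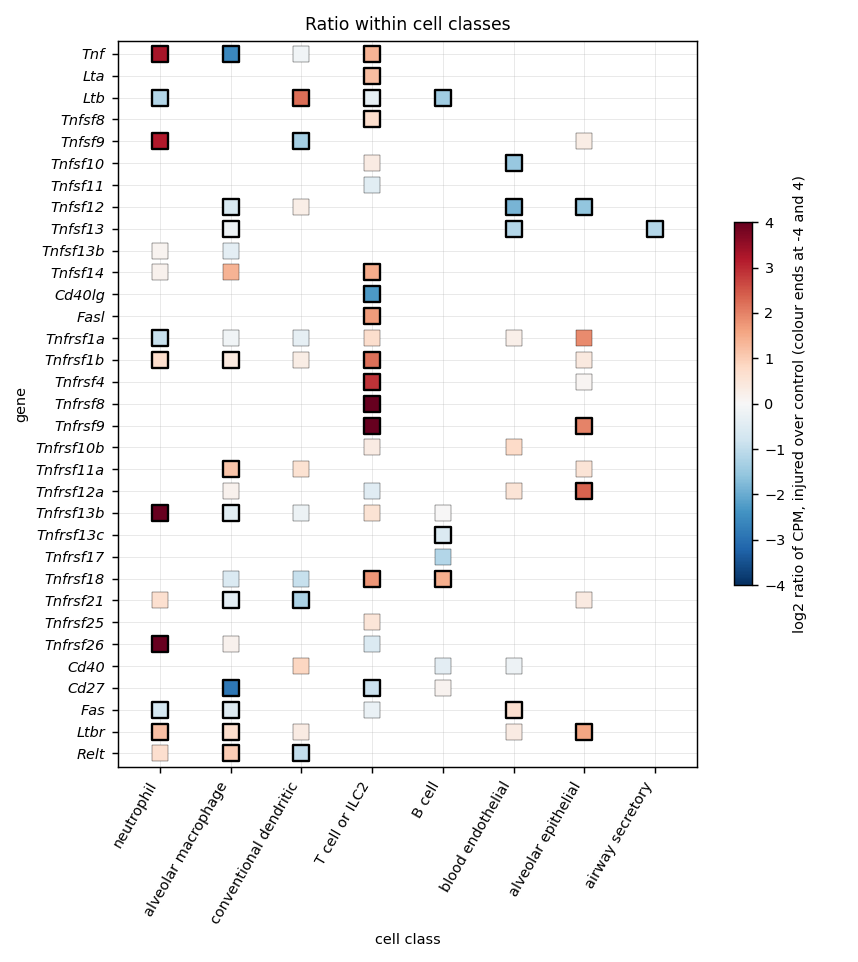
Log2 ratio of CPM, injured over control, for members (rows) with at least 20 UMIs in a class (columns). Thick outlines mark counting intervals that exclude 1, and a square whose one library has no UMI shows the ratio with that count set at 3. Tnf is 3.28 in neutrophils and -2.61 in alveolar macrophages.

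In neutrophils 14 members passed the minimum, of which 8 were higher and 3 lower, against backgrounds of 51.4% and 10% of 7773 genes, so the share of higher members is near the background. Relative to the class median 5 were higher and 3 lower, against 42.5% and 14.2% of genes. The median log2 ratio was 0.66 over these members and 0.62 over all genes. Tnf was 9.73-fold (4.09–30.3) higher, on 179 injured and 5 control UMIs. Tnfrsf13b had 104 and 1 UMIs (84.7 against 2.997 CPM, ratio 28.3, 4.96–1127), Tnfrsf26 81 and 1 (66.0 against 2.997 CPM, ratio 22.0, 3.84–880) and Tnfsf9 34 and 1 (27.7 against 2.997 CPM, ratio 9.24, 1.55–376). Almost all these UMIs were in cluster 0, with 162 of Tnf, 101 of Tnfrsf13b, 77 of Tnfrsf26 and 34 of Tnfsf9 in its 426 injured cells. In cluster 7, which both libraries share, Tnf stood at 43.7 CPM (25.5–70.0) in injured and 16.0 CPM (5.19–37.3) in control cells, a ratio of 2.73 (0.968–9.47) that includes 1, and Tnfrsf13b had 3 and 1 UMIs. Tnfrsf1a and Fas were lower in the whole class by 1.88-fold and 1.64-fold, and Ltb by 2.24-fold at 226 CPM in injured and 507 CPM in control cells. In cluster 7 the log2 ratio of Tnfrsf1a was -0.37, within 1.5-fold. In cluster 7 Ltb was 144 CPM (109–187) in injured and 499 CPM (424–584) in control cells. Cluster 0 passed 10 of 12 neutrophil markers and cluster 7 all 12.

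Alveolar macrophages had the opposite direction for Tnf, 6.10-fold lower in injured cells (48 and 287 UMIs). Of 19 members past the minimum 4 were higher and 4 lower, against backgrounds of 13.6% and 22.9% of 11426 genes, with medians of -0.39 over the members and -0.14 over all genes. Relative to the class median 4 were higher and 3 lower, against 17.5% of genes in either direction. Tnfrsf11a, the RANK gene, was at 31.1 CPM (26.8–35.8) in injured and 14.1 CPM (11.2–17.4) in control cells, Relt at 15.1 and 7.55 CPM, and Ltbr at 73.3 CPM (66.7–80.5) and 45.3 CPM (40.1–51.0). Tnfsf12 was 1.56-fold lower, which is within 1.5-fold relative to the class median. Cd27, at 5 injured and 36 control UMIs, was 7.35-fold lower, but alveolar macrophages were its background class and T cell or ILC2 cells were 8.21% of injured and 12.4% of control cells, and the part of free RNA in this was not tested.

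Conventional dendritic cells held 18 members past the minimum, 4 higher and 7 lower, against 24.8% and 15.3% of 8539 genes, with medians of -0.19 and 0.13. Ltb was at 73.0 CPM (56.6–92.7) in injured and 15.6 CPM (6.75–30.8) in control cells, a ratio of 4.67 (2.24–11.3), and 1 injured cell held 20 of the 67 UMIs. With each cell counted the same its log2 ratio was 0.59 rather than 2.22. Tnfsf9 (33 and 47 UMIs), Tnfrsf21 (18 and 24) and Relt (20 and 22) were lower by 2.56-fold, 2.39-fold and 1.97-fold. Tnfrsf9 had 13 UMIs in injured and none in control cells of this class, a ratio of 2.42 with the control count set at 3.

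The T cell or ILC2 class had 23 members past the minimum, 11 higher and 3 lower, against 41.6% and 6.81% of 9855 genes. Relative to the class median 9 were higher and 7 lower, against 21.5% and 17.9% of genes. The median log2 ratio was 0.57 over these members and 0.44 over all genes. Tnfrsf9 stood at 211 CPM (185–241) in injured and 2.28 CPM (0.621–5.83) in control cells, from 229 and 4 UMIs. Tnfrsf4 had 323 and 70 UMIs (ratio 7.48, 5.76–9.83), Tnfrsf18 297 and 143 (3.37, 2.75–4.14), Tnfrsf1b 105 and 37 (4.6, 3.14–6.89) and Tnfrsf8 32 and 1 (51.9, 8.66–2112). In the control library 1 cell held 20 of the 70 Tnfrsf4 UMIs. The class joins cluster 6 (68 injured, 223 control cells) and cluster 10 (121 injured, 62 control), whose leading genes included Icos, Ctla4, Il2ra and Foxp3. Values of the whole class thus compare unlike mixes of these clusters. Within clusters 6 and 10 the log2 ratio of Tnfrsf4 was 0.99 and 1.38 rather than 2.90, that of Tnfrsf18 0.61 and 0.74 rather than 1.75, and that of Tnfrsf1b 1.36 and 1.24 rather than 2.20. The cytotoxic ligand gene Fasl had 30 and 15 UMIs (3.24, 1.69–6.48). Cd40lg was 4.94-fold lower, at 9.23 CPM (4.43–17.0) in injured and 45.5 CPM (36.1–56.7) in control cells, and Cd27 1.83-fold lower at 120 CPM (100.2–142) and 219 CPM (198–242). Ltb, the most abundant member, was at 546 CPM (503–592) and 702 CPM (663–742), within 1.5-fold and past it on the lower side relative to the class median.

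Most Tnfrsf9 and Tnfrsf4 UMIs of the injured class lay in cells with Foxp3. Cells with a UMI of Foxp3, the regulatory T cell factor, were 38 of 189 injured (20.1%) and 9 of 285 control cells (3.16%), at median depths of 6202.5 and 6207 UMIs. Within that gate Tnfrsf4 was at 967 CPM (858–1086) in injured and 572 CPM (407–782) in control cells, and Tnfrsf18 at 632 CPM (544–730.02) and 337 CPM (214–506). Tnfrsf9 stayed apart, at 687 CPM (595–789) in injured and 14.7 CPM (0.371–81.7) in control cells, with UMIs in 27 of 38 and in 1 of 9 cells. Tnfrsf8 had 28 UMIs in 15 injured cells of the gate and none in the 9 control cells. With the control count set at 3 its ratio was 2.17, and the exact lower limit was 1.65. The injured gate held 201 of the 229 Tnfrsf9 UMIs and 283 of the 323 Tnfrsf4 UMIs of the class. Cd27 was lower in the injured gate, at 167 CPM (124–221) against 543 CPM (382–748).

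Outside the gate the picture differed by gene. Cells with a Cd4 UMI but none of Cd8 or Foxp3 (33 injured, 92 control) had Tnfrsf4 at 178 CPM (120–256) in injured and 26.1 CPM (14.2–43.7) in control cells, and Tnfsf8 at 185 CPM (125–264) and 50.3 CPM (33.1–73.1). Cells with a Cd8 UMI but none of Cd4 or Foxp3 (42 injured, 98 control) had 2 Tnfrsf4 UMIs in the injured and none in the control library, and Tnfsf8 at 99.4 CPM (63.0–149) and 43.6 CPM (29.4–62.2). Cd40lg was at 24.6 CPM (6.71–63.0) in injured and 65.2 CPM (45.4–90.6) in control Cd4 cells, intervals that overlap. The gates miss cells whose marker transcript was not sampled, and 73 injured and 84 control cells fell in none. In these ungated cells Tnfrsf4 was at 24.0 CPM (10.99–45.6) in injured and 37.6 CPM (21.9–60.2) in control cells, a ratio of 0.639 (0.251–1.52) whose interval includes 1, and Tnfsf8 at 40.04 CPM (22.4–66.04) and 44.2 CPM (27.0–68.3). Higher levels of these genes in injured cells were thus not seen in every gate. Tnfrsf9 had 21 and 2 UMIs in ungated cells (ratio 12.7, 3.10–112), Cd40lg was at 16.0 CPM (5.88–34.9) and 92.8 CPM (66.9–125), and Cd27 at 61.4 CPM (38.9–92.1) and 223 CPM (182–271). The direction also depended on the cluster for 3 members, since Tnfrsf26 had a log2 ratio of 0.44 within cluster 6, and Tnfsf8 and Tnfsf14 had -0.32 and -0.28 within cluster 10, each the opposite of the whole class.

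**Figure D5:**
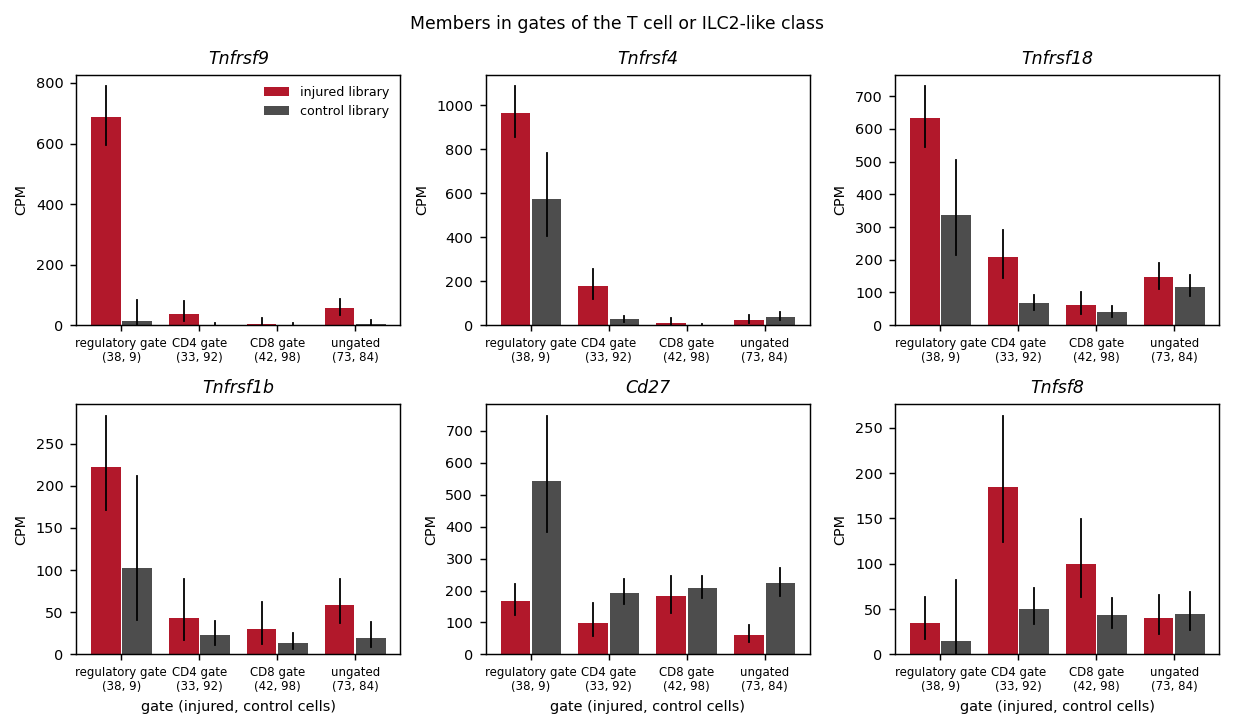
CPM of 6 members in gates of the T cell or ILC2 class, injured (red) beside control (grey), with exact 95% Poisson intervals and cell numbers in brackets. Tnfrsf9 reaches 687 CPM in injured regulatory gate cells and 14.7 CPM in the control ones, and Cd27 is lower there at 167 against 543 CPM.

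B cells had 12 members past the minimum, 3 higher and 2 lower (24.4% and 19.5% of 8814 genes), with medians of 0.08 over the members and 0.07 over all genes. Relative to the class median 2 were higher and 4 lower, against 17.7% and 24.8% of genes. Ltb was 2.65-fold lower, at 328 CPM (265–400) in injured and 869 CPM (824–916) in control cells. The other lower member, Tnfrsf17, rests on the single control cell described above. Tnfrsf13c had a ratio of 0.667 (0.472–0.921), within 1.5-fold and past it relative to the class median, while Tnfrsf13b had a ratio of 1.02 (0.723–1.40), and Tnfrsf18 was 2.76-fold (1.15–6.17) higher on 10 and 20 UMIs. The class had 59 injured and 317 control cells.

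Blood endothelium had 12 members past the minimum, 2 higher and 6 lower (21.6% and 21.1% of 9475 genes), with medians of -0.42 and 0.01. Relative to the class median 1 was higher and 6 were lower, against 16.7% and 27.2% of genes. All 4 ligand genes past the minimum were lower there, with Tnfsf10 2.84-fold lower (91.6 and 260.3 CPM), Tnfsf12 3.67-fold lower at 25.3 CPM (10.9–49.8) and 92.6 CPM (74.9–113), Tnfsf13 2.23-fold lower and Ltb at 0 injured and 18 control UMIs. Fas was 1.61-fold (1.21–2.13) higher, at 246 CPM (195–307) in injured and 153 CPM (130–179) in control cells, which is within 1.5-fold relative to the class median. In cluster 3, the endothelial cluster with at least 50 cells of both libraries, the Fas ratio was 1.15 (0.692–1.87) and the Tnfsf10 ratio 0.221 (0.0783–0.507).

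Alveolar epithelium had 13 members past the minimum, 5 higher and 2 lower, against 43.1% and 18.6% of 9424 genes, with medians of 0.38 and 0.42. Its totals were 1300682 injured and 158185 control UMIs, so a gene with few injured and no control UMIs can be called lower here. Tnfrsf12a was at 292 CPM (264–323) in injured and 56.9 CPM (26.0–108) in control cells, on 380 and 9 UMIs, a ratio of 5.13 (2.68–11.3). Ltbr was at 94.6 CPM (78.6–113) and 31.6 CPM (10.3–73.8). Tnfrsf9 had 98 UMIs in 31 of 102 injured cells and none in 87 control cells, a ratio of 3.97 with the control count set at 3. Depth was unequal, with medians of 7094.5 UMIs in injured and 1218 in control cells and 1300682 and 158185 UMIs in all. Injured cells lay mainly in cluster 18, which passed 7 of 8 AT1 and 7 of 9 AT2 markers, and control cells mainly in cluster 20, which passed 7 of 9 AT2 markers. In cluster 18 the Tnfrsf12a level was 290 CPM (261–321) for the 84 injured cells, against 126 CPM (54.4–248) for the 22 control cells. In cluster 20 it was 364 CPM (204–600.2) for the 18 injured cells, against 10.6 CPM (0.267–58.8) for the 65 control cells. The parts of cell type and library in the difference cannot be told apart. Airway secretory cells had 4 members past the minimum, 3 higher and 1 lower (47.2% and 12.5% of 4910 genes), all on 30 or fewer UMIs per library, with medians of 2.38 and 0.51. Relative to the class median the counts were again 3 and 1, against 36.8% and 22.3% of genes.

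Beyond the receptors, 59 of 65 genes of TNF signalling passed the whole-library minimum, of which 14 were higher, 4 lower and 41 between, beside the whole-library backgrounds of 20.7% and 17.7%. Of the 12 TNF-induced genes listed 10 passed the minimum, of which 5 were higher, 1 lower and 4 between. The higher ones included Csf1 (the macrophage growth factor) with a ratio of 3.38 (2.96–3.89), the adhesion molecule Icam1 with 2.48 (2.30–2.68), the neutrophil chemokine Cxcl2 with 2.28 (2.19–2.36) and Vcam1 with 2.17 (1.61–2.94). The lower one was the chemokine gene Cxcl10, 1.67-fold lower on 104 injured and 142 control UMIs, and Tnfaip2 lay between with a ratio of 0.736 (0.710–0.763). Inside conventional dendritic cells 7 of these genes passed the minimum, 0 higher and 4 lower, beside 24.8% and 15.3% of all genes. Inside airway secretory cells 5 passed it, 3 higher and 1 lower, beside 47.2% and 12.5%. Other classes had both directions, with 4 higher and 3 lower in neutrophils, and 2 and 3 in both alveolar macrophages and blood endothelium. The NF-κB subunits Nfkb1, Nfkb2, Rela, Relb and Rel had whole-library ratios between 0.906 and 1.37, none past 1.5-fold. Inside T cell or ILC2 cells and inside alveolar epithelium 4 of the 5 were higher and 0 lower. The backgrounds of higher genes there were 41.6% and 43.1%. Inside alveolar macrophages 3 were lower and 0 higher, beside 22.9% and 13.6% of all genes. Among adaptors Traf6 stood at 1.98 (1.66–2.36), Traf1 at 1.56 (1.43–1.70) and Traf5 at 0.597, 1.67-fold lower. In the whole library 0 of the 6 caspase and necroptosis genes passed 1.5-fold. Inside neutrophils 4 of them passed the minimum, 3 higher and 1 lower, beside 51.4% and 10% of all genes. Inside B cells 5 passed it, 0 higher and 3 lower, beside 24.4% and 19.5%. Adam10, a sheddase, was at 2.27 (2.12–2.44), and the other sheddase Adam17 at 1.29. The decoy receptor gene Tnfrsf23 was 2.67-fold (2.22–3.21) higher, and the NF-κB inhibitors Bcl3 and Tnip3 2.21-fold and 2.03-fold higher.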

How the data were processed

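The deposited values are raw UMI counts. Per the file headers, Cell Ranger 4.0.0 made the matrices. The submitters' processing notes also list STAR 2.7.2c, featureCounts 1.6.3, DESeq2 1.26.0 and 1.28.1 and the builds GRCm38 and mm10, with no role stated for these libraries. Barcodes were kept with at least 200 genes and at most 15% mitochondrial UMIs, and the top 44 doublet scores of each library were removed. No deposited barcode had fewer than 500 UMIs. Cells were clustered without batch integration (2000 variable genes, 30 components, 20 neighbours, Leiden resolution 1, seed 1) with the 36 members left out. Clusters were named from 29 marker lists where at least 3 markers were 3-fold above other cells and present in 20% of the cluster. Merged names joined AT1 with AT2, dendritic lists, and T cell with ILC2. Counts were summed per library and class and called higher or lower at 1.5-fold with at least 10 UMIs. Ratios have exact conditional intervals and levels exact Poisson intervals (95%), a count of 0 was set at 3, and shares of cells were repeated with each cell thinned to 1000 UMIs (276 injured and 334 control cells were shallower). These intervals cover counting error only. The rule named members with at least 50 UMIs (in a class, 20) and up to 4 genes per pathway list, and any other gene named was chosen after its values were seen. The members and lists were chosen with earlier results of these data known. The tools were leidenalg 0.10.2 and python-igraph 0.11.9 for clustering, scipy 1.17.1 for intervals, matplotlib 3.10.9 for figures, and numpy 2.4.6 under Python 3.11.15. RefSeq proteins were not used here.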

Additional observations from a re-analysis of the deposited data

Results flagged for a closer look

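5 members had log2 ratios of opposite sign in 2 cell classes, each with a counting interval that excludes 0. Tnf had 3.28 in neutrophils and -2.61 in alveolar macrophages. Ltb had 2.22 in conventional dendritic cells and -1.41 in B cells, and Tnfsf9 3.21 in neutrophils and -1.35 in conventional dendritic cells. Fas had 0.69 in blood endothelium and -0.72 in neutrophils, and Relt 1 in alveolar macrophages and -0.98 in conventional dendritic cells. The median log2 ratio of all genes was 0.62 in neutrophils and -0.14 in alveolar macrophages, and no share over all genes was set beside the 5. As given above, Fas in blood endothelium was within 1.5-fold relative to the class median, and its interval in cluster 3 included 1. In conventional dendritic cells 1 injured cell held 20 of the 67 Ltb UMIs. The difference between classes was not tested, since each library stands for 1 sample.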

How the results depend on the processing

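No paired analysis was possible because each group is 1 library, and no replicate could be left out. Of 223 whole-library values under other settings 204 stayed close to the reported one, 18 moved and 1 past 1.5-fold changed sign. All 19 of these came from counting each cell the same, under which 13 of 32 ratios stayed close, the log2 ratio of Tnf was 1.47 and 14 members were higher and 10 lower. Of 441 values within classes 414 stayed close, 21 moved and 6 changed sign. These 6 were Tnfrsf10b in blood endothelium (-0.08) and Tnfsf13 in airway secretory cells (0.17) with each cell counted the same, Tnfrsf11a in conventional dendritic cells (-0.54) with each library clustered alone, Tnfrsf26 within T cell cluster 6 (0.44), and Tnfsf8 (-0.32) and Tnfsf14 (-0.28) within cluster 10. Within single clusters fewer values stayed close, with 5 of 14 in cluster 10 and 2 of 8 in cluster 6. The counts were 3 of 5 in cluster 3 and 5 of 8 in cluster 7. In the same order 7, 5, 2 and 3 values moved. The cause of the changes of sign was not tested. With a minimum of 50 counts the 40 higher and 28 lower pairs of member and class became 23 and 14, since fewer pairs pass. A minimum selects genes and cannot alter a ratio, so the values under other minimums were bound to stay close. These were 32 of 32 whole-library values and 37 of 37 class values at 50 counts. With no minimum beyond 1 count they were 32 of 32 whole-library values. The comparisons within single clusters, and without the cell with most UMIs of a member, were chosen after seeing the data. Of 320 shares of UMIs 38 moved. Depth limits members with few UMIs, and 1 library per group limits every comparison to these libraries.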
